A study of Mus musculus with 6 samples.

Results

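The 30 genes described here encode receptors, vesicular transporters and scaffold proteins of glutamate transmission. They were read in the suprachiasmatic nucleus (SCN), the small paired nucleus of the hypothalamus that houses the master circadian clock. The genes were taken by symbol from the deposited gene tables, which list 17645 genes, and all 30 were found. By role they are 3 vesicular glutamate transporters, 4 AMPA, 7 NMDA, 5 kainate and 1 delta receptor subunit, 6 metabotropic receptors and 4 postsynaptic scaffold proteins. The tissue came from female C57BL/6 mice killed in the dark at zeitgeber time 12 to 14, which counts hours from lights on, and each library pooled RNA of 2 SCN. There were 3 libraries titled V (replicates 2, 3 and 4) and 3 titled r1r2V (replicates 1, 4 and 5). From the series title, r1r2V was taken to lack Nr1d1 and Nr1d2 (the genes of REV-ERBα and REV-ERBβ, repressors within the clock) in GABAergic neurons, and V to be its control. The labels name neither the driver of the deletion nor any allele that the V animals carry. The labels also do not say whether pools came from separate animals, so p-values measure only the spread between these samples.

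As background, axons of the retina release glutamate onto SCN neurons, and this is the route by which light resets the clock. Vesicular transporters load glutamate into synaptic vesicles of the sending neuron. AMPA receptors carry the fast depolarisation, NMDA receptors let calcium in once the membrane is depolarised, kainate receptors adjust release and excitability, and metabotropic receptors act through G proteins. Most SCN neurons release GABA and not glutamate.

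Total expected counts ran from 15729603 to 17780928 per library. Libraries of the r1r2V group varied more than those of V. The chi-square per degree of freedom between pairs was 11.3 to 13.0 in r1r2V and 3.75 to 5.40 in V. All 15 markers of SCN neurons and all 12 pan-neuronal markers were detected in the data. Their summed levels were 638 to 753 and 6715 to 7472 CPM (counts scaled to library size) over the 6 libraries. Avp, the largest part of the SCN sum, was highest in r1r2V replicate 5, at 384 CPM against 160 to 360 CPM elsewhere. Vip was lowest in that library, at 11.4 CPM against 50.5 to 85.8 CPM. The range of the sum therefore does not show that single SCN markers were even between libraries. Over the 15 SCN markers the median log2 fold change (r1r2V minus V) was -0.19, beside 0.01 over all genes. In edgeR's quasi-likelihood test 0 passed an adjusted p of 0.05, beside 0.416% of all genes. At an unadjusted p under 0.05, 4 were lower (Lhx1, Rora, Vipr2 and Avpr1a), beside 3.63%, and 1 was higher (Rgs16), beside 3.95%. The part of this in the glutamate values was not tested. Neither targeted transcript was lower in r1r2V. The log2 fold change (r1r2V minus V) was 1.504 for Nr1d1, with an adjusted p of 8.24e-05, and 0.47 for Nr1d2, with an adjusted p of 0.0553, so directions rest on the sample titles.

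No glutamate gene differed between the groups by the test. Of 29 members with enough counts to be tested, 0 were higher and 0 lower in r1r2V at an adjusted p of 0.05 (edgeR's quasi-likelihood test, Benjamini-Hochberg over 14438 genes). Over all genes tested 0.298% were called higher and 0.118% lower, so a count of 0 among 29 is near the background. The smallest adjusted p of a member was 0.314, for Grid1. The count was also 0 in each direction with DESeq2 and limma-voom and in the other alternatives run. At an unadjusted p under 0.05, 2 members were higher (Gria3 and Shank2) beside 3.95% of all genes, and 1 was lower (Grid1) beside 3.63%. Together these are 10.3% of the 29, beside 7.58% of all genes. The groups did not overlap for 3 members, or 10.3% beside 14.5% of all genes. In r1r2V, Gria3 and Grm7 lay wholly above V, beside 6.87% of all genes, and Grid1 wholly below it, beside 7.63%. The median log2 fold change of the members was 0.05, beside 0.01 over all genes.

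The intervals show what size of change these libraries leave possible. For 23 of the 29 members the 95% interval of the difference lay inside a 1.5-fold change either way, and for 28 it lay inside a 2-fold change. Slc17a7 was the exception, with an interval from 0.490-fold to 2.71-fold. For 7 members the interval lay inside a 1.2-fold change. In a simulated set of 14361 genes, the test recovered 8% of the 1.2-fold, 74% of the 1.5-fold and 92% of the 2-fold changes put in. Small changes were thus mostly missed in the simulation. These rates were not worked out for the members. Whether they hold when 1 group varies more, as r1r2V did, or when shifts are shared across genes was not tested. They are therefore only a rough guide to what was missed here.

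**Figure D1:**
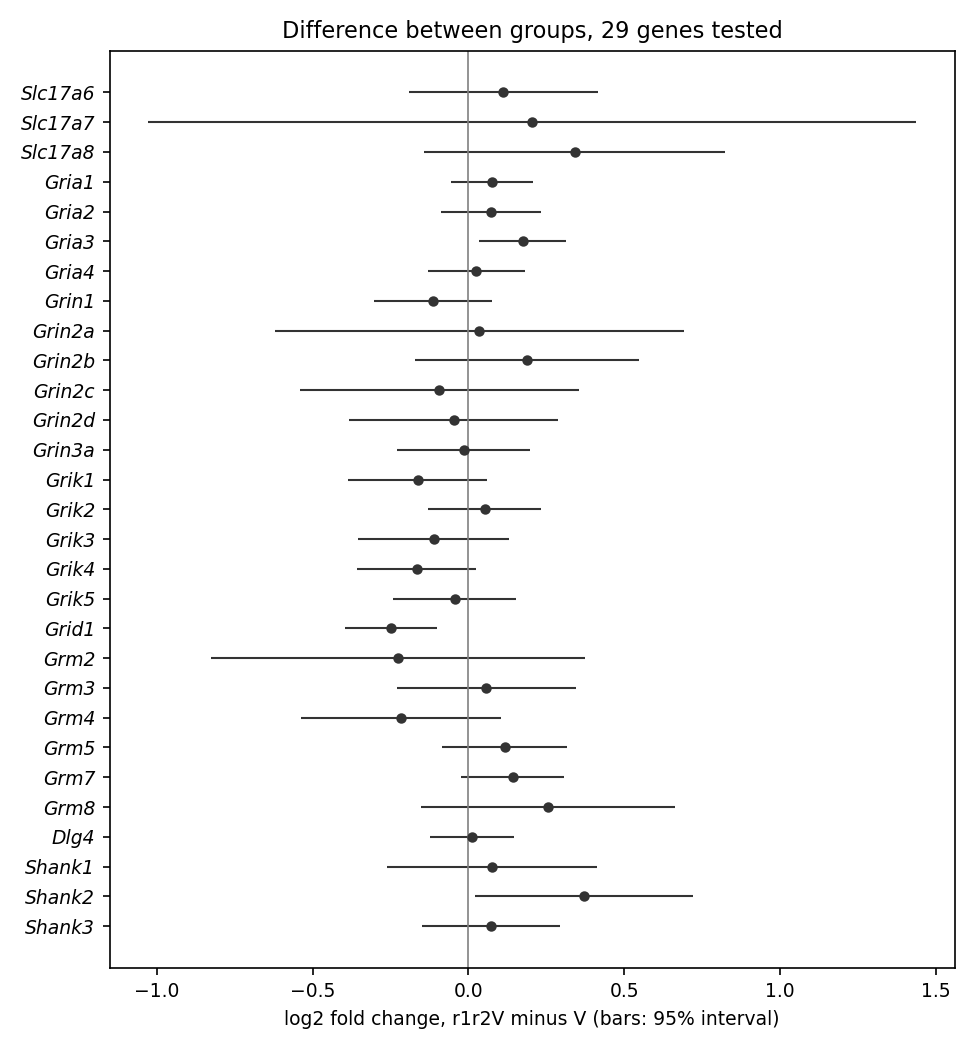
Log2 fold change (r1r2V minus V, horizontal axis) of the 29 tested glutamate genes, with bars for the 95% interval from edgeR's quasi-likelihood fit. The bars of Gria3, Shank2 and Grid1 leave out 0 before adjustment, and that of Slc17a7 runs from -1.03 to 1.44.

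Levels between genes were compared per length, as FPKM, the fragments scaled by transcript length and library size that the authors deposited. The members spanned almost the whole range of expression in the control nucleus. In V, 13 members had a mean over 10 FPKM, 26 over 1 FPKM, and 1, Dlg4, over 100 FPKM. Dlg4 encodes PSD-95, the main scaffold of excitatory synapses. It had 119 ± 2.02 FPKM (SD, n = 3), above 95.6% of the genes listed in every V library. At the other end Grin3b, an NMDA subunit gene, had 0.140 ± 0.0794 FPKM (SD, n = 3), above 4.99% of those genes. Grin3b had 4 to 13 counts per library and was the member too low to be tested.

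**Figure D2:**
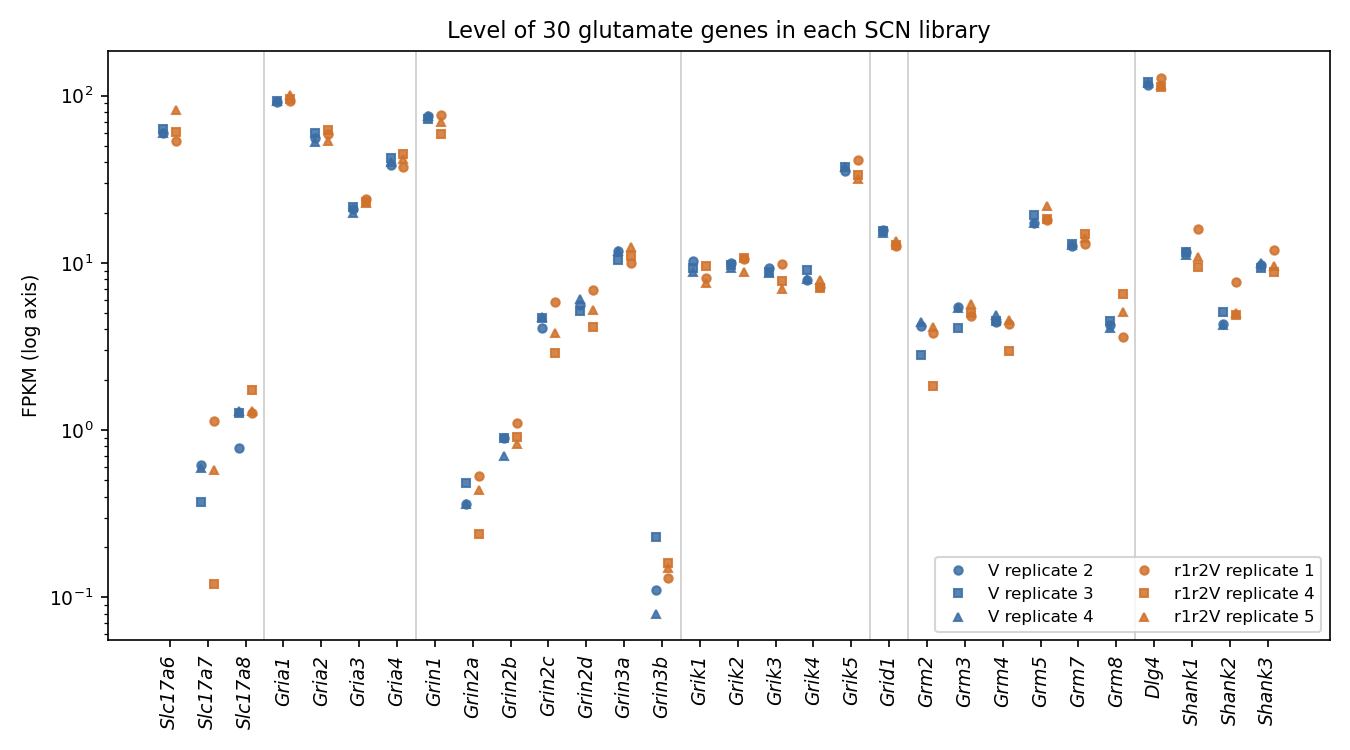
FPKM on a log axis for the 30 genes in each of the 6 libraries, blue for V and orange for r1r2V, with vertical lines between classes. Levels run from near 0.1 FPKM for Grin3b to over 100 FPKM for Dlg4, and the 2 colours lie close together for most genes.

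Among vesicular transporters, Slc17a6 (VGLUT2) made up nearly all of the transcript. Its share of the summed FPKM of the 3 genes was 97.4% ± 0.386 in V and 96.8% ± 1.03 in r1r2V (SD, n = 3 each). At 60.9 ± 2.12 FPKM in V, Slc17a6 lay above Slc32a1, the vesicular GABA transporter gene, which had 53.2 ± 1.63 FPKM, and below the GABA synthesis genes Gad1 and Gad2, which had 149 ± 5.88 and 112 ± 9.34 FPKM (SD, n = 3 each). Slc17a7 (VGLUT1) and Slc17a8 (VGLUT3) had 0.527 ± 0.136 and 1.12 ± 0.292 FPKM (SD, n = 3 each).

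Slc17a6 had 211, 224 and 212 CPM in V replicates 2, 3 and 4, and 188, 216 and 295 CPM in r1r2V replicates 1, 4 and 5. The r1r2V libraries lay below, within and above the V range, and the log2 fold change was 0.11 with a standard error of 0.136 (adjusted p = 0.843). Without r1r2V replicate 5 it was -0.10 and without replicate 1 it was 0.25. Replicate 5, with the highest Slc17a6, also had the highest summed level of 16 markers of neighbouring hypothalamic neurons, at 2456 CPM. That sum was 1790 and 1579 CPM in r1r2V replicates 1 and 4 and 2031 to 2140 CPM in V, and none of the 16 markers was at 0 in all libraries. The height of that sum in replicate 5 came from Pmch, the melanin-concentrating hormone gene, at 581 CPM there and 1.67 to 213 CPM in the others. Summed over the other 15 markers, replicate 5 had 1875 CPM, within the 1818 to 2128 CPM of V. Of the 16 markers, 6 were highest of all libraries in replicate 5 and 4 were lowest there. Markers of meningeal fibroblasts, 9 of 9 detected, summed to 953 CPM in replicate 5, 311 and 341 CPM in replicates 4 and 1, and 448 to 570 CPM in V. Without Ptgds, its most abundant gene, that sum was still highest in replicate 5, at 231 CPM against 90.3 to 134 CPM elsewhere. A highest sum in replicate 5 was not particular to these 2 lists. It was also seen for pan-neuronal (7472 CPM), astrocyte (3514 CPM), oligodendrocyte precursor (801 CPM), microglia (492 CPM), and endothelial and mural markers (423 CPM). It was not seen for SCN neuron, oligodendrocyte, or ependymal and choroid plexus markers. In tissue more cells of a type and more RNA per cell cannot be told apart, and the part of these markers in the Slc17a6 values was not tested.

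Slc17a8 had 3.27, 5.01 and 5.46 CPM in the V libraries against 4.99, 7.01 and 5.36 CPM in r1r2V, with overlapping groups and a log2 fold change of 0.34 (standard error 0.217, adjusted p = 0.718). With 1 library left out that value ran from 0.14, without V replicate 2, to 0.48, and it was 0.18 without r1r2V replicate 4. Slc17a7 was read from 6 to 56 counts per library. It had 1.81, 1.07 and 1.71 CPM in the V libraries against 3.25, 0.345 and 1.69 CPM in r1r2V, so r1r2V replicates 1 and 4 were the highest and lowest of all 6.

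The AMPA receptor genes varied little within groups, with coefficients of variation in CPM from 0.606% to 5.77% in V and from 1.57% to 7.69% in r1r2V. Gria1 (GluA1) was the most abundant per length, with 92.2 ± 0.851 FPKM in V. Gria2 (GluA2), whose edited subunit keeps calcium out of the channel, followed with 56.0 ± 3.67 FPKM, Gria4 (GluA4) with 40.2 ± 1.95 FPKM and Gria3 (GluA3) with 20.8 ± 0.836 FPKM (SD, n = 3 each). No neighbours in this order overlapped in any V or r1r2V library. As shares of the family these were 44.1%, 26.7%, 19.2% and 9.95% in V, and 44.1%, 26.6%, 18.7% and 10.7% in r1r2V. The summed FPKM of the 4 genes was 209 ± 5.88 in V and 220 ± 6.02 in r1r2V (SD, n = 3 each).

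Gria1 had 502, 504 and 508 CPM in the V libraries against 506, 526 and 562 CPM in r1r2V. The interval of the difference ran from 0.962-fold to 1.15-fold. Gria2 had 542, 574 and 512 CPM in the V libraries against 565, 617 and 530 CPM in r1r2V, with an interval from 0.941-fold to 1.18-fold. Gria4 had 152, 169 and 163 CPM in the V libraries against 153, 173 and 166 CPM in r1r2V, with an interval from 0.913-fold to 1.13-fold. For these 3 genes the groups overlapped. The difference was within the spread of the libraries for Gria2 and Gria4. For Gria1 the means of 504 and 531 CPM differed by more than the V SD of 3.05 CPM. They differed by less than the r1r2V SD of 28.2 CPM.

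Gria3, on the X chromosome, had 108, 109 and 102 CPM in the V libraries against 122, 120 and 118 CPM in r1r2V. All 3 r1r2V libraries lay above all 3 V libraries, with a log2 fold change of 0.17 and a standard error of 0.0624 (unadjusted p = 0.0195, adjusted p = 0.566). With an offset for transcript GC content in each library the difference was 0.09. Gria3 was also 1 of 2 genes whose share of its family did not overlap between groups, at 9.95% ± 0.282 in V and 10.7% ± 0.531 in r1r2V (SD, n = 3 each). The margin was small, with a highest V share of 10.24% and a lowest r1r2V share of 10.29%. The exact permutation test of that share gave p = 0.1, the smallest that 3 against 3 libraries allow, and an adjusted p of 1 over 22 shares.

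**Figure D3:**
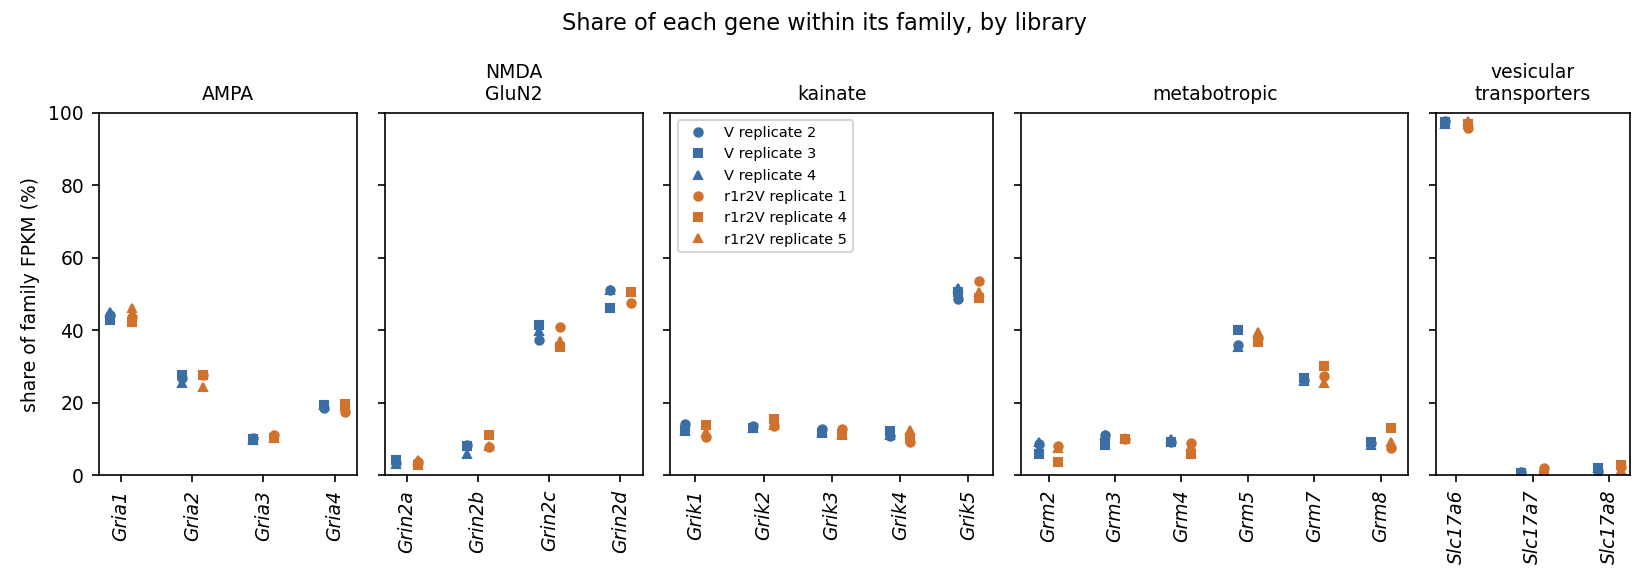
Share of the summed FPKM of its family that each gene held, in percent, for each library (blue V, orange r1r2V). The order of the AMPA genes and the lead of Slc17a6, Grik5 and Grm5 in their families were the same in all 6 libraries.

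Grin1, which encodes the obligatory GluN1 subunit of NMDA receptors, far exceeded the subunits it assembles with. It had 74.8 ± 1.82 FPKM in V, and its ratio to the sum of the other 6 NMDA genes was 3.29 ± 0.0661 in V and 3.09 ± 0.0601 in r1r2V (SD, n = 3 each). After Grin1 came Grin3a, with 11.3 ± 0.823 FPKM in V. Of the glutamate-binding GluN2 subunits, Grin2d and Grin2c led, with 5.61 ± 0.431 and 4.49 ± 0.365 FPKM, over Grin2b with 0.833 ± 0.115 and Grin2a with 0.400 ± 0.0693 FPKM (SD, n = 3 each). Grin2d and Grin2c together therefore held most of the GluN2 transcript, at shares of 49.5% and 39.6% in V and 49.7% and 37.7% in r1r2V. Grin2b and Grin2a had 7.39% and 3.54% in V. These levels divide by the deposited transcript lengths, which were 7515 bases for Grin2b and 4383 bases for Grin2d, and no gene's length was checked against its reads.

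Grin1 had 301, 286 and 299 CPM in the V libraries against 302, 237 and 279 CPM in r1r2V. Replicate 4 of r1r2V was lowest, and the log2 fold change of -0.11 (standard error 0.0852, adjusted p = 0.752) moved to -0.02 without that library, to -0.19 without r1r2V replicate 1 and to -0.04 with an offset for transcript GC content in each library. Grin2c had 19.6, 22.3 and 22.7 CPM in the V libraries against 27.9, 14.0 and 18.5 CPM in r1r2V. The r1r2V libraries spread to both sides of V, with a coefficient of variation of 35.0% against 7.77%. Grin2d had the same order within r1r2V, with 24.0, 22.1 and 25.9 CPM in the V libraries against 29.01, 17.9 and 22.7 CPM in r1r2V.

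Grin2b had 6.71, 6.65 and 5.20 CPM in the V libraries against 8.12, 6.84 and 6.24 CPM in r1r2V, and Grin2a stayed between 1.09 and 2.32 CPM in all 6 libraries. Grin3a, whose subunit lowers calcium entry, had 89.7, 77.9 and 88.9 CPM in the V libraries against 74.6, 84.1 and 95.1 CPM in r1r2V. The groups overlapped for each of these genes. Their log2 fold changes were 0.19, 0.03 and -0.01.

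Kainate receptor genes were led by Grik5, which encodes the high-affinity subunit GluK5. Grik5 had 36.8 ± 1.03 FPKM in V and 50.3% of the family's FPKM. Grik2, Grik1, Grik3 and Grik4 had 9.69 ± 0.321, 9.48 ± 0.737, 8.90 ± 0.334 and 8.32 ± 0.651 FPKM (SD, n = 3 each). Each of these 4 differed from the next by less than 1 SD of the wider one. In all 3 V libraries Grik2 lay above Grik3 and Grik4 with no overlap, while Grik1 overlapped with each of the other 3 genes and Grik3 with Grik4.

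The summed kainate FPKM was 73.2 ± 1.14 in V and 69.6 ± 6.99 in r1r2V (SD, n = 3 each). Grik5 had 135, 141 and 140 CPM in the V libraries against 154, 128 and 121 CPM in r1r2V, so replicate 1 of r1r2V lay above V and the others below it. Grik3 had 81.6, 76.4 and 75.7 CPM in the V libraries against 85.7, 69.0 and 61.6 CPM in r1r2V, which also lay above V in replicate 1 and below it in the others. For Grik1 the log2 fold change was -0.16 (36.2, 32.4 and 31.0 against 28.4, 33.7 and 26.9 CPM), and for Grik4 -0.17 (26.7, 30.5 and 27.2 against 24.1, 24.1 and 27.1 CPM). Grik2 had 105, 101 and 98.2 CPM in the V libraries against 109, 113 and 93.6 CPM in r1r2V, a log2 fold change of 0.05. None of the 5 passed, and the adjusted p ran from 0.678 to 0.911.

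Grid1, which encodes the delta receptor subunit GluD1, a partner of cerebellins at the synapse, came nearest to the threshold. It had 53.0, 51.8 and 50.6 CPM in the V libraries against 42.0, 43.5 and 45.5 CPM in r1r2V. All 3 r1r2V libraries lay below all 3 V libraries, by more than the spread within either group (51.8 ± 1.18 against 43.6 ± 1.76 CPM, SD, n = 3 each). The log2 fold change was -0.25 with a standard error of 0.0662 (unadjusted p = 0.00379, adjusted p = 0.314), and the interval ran from 0.760-fold to 0.933-fold. Without any 1 library the log2 fold change ran from -0.28 to -0.22, and over the alternatives the adjusted p ran from 0.203 to 0.931.

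Grid1 lies on chromosome 14 from 34820003 to 35583387 (GRCm38), on the plus strand. Its start is 16.6 Mb from that of Nr1d2, one of the targeted genes, on a chromosome where 28 of 515 tested genes were called (5.44%, beside 0.416% of all genes). Of 66 genes tested that start within 5 Mb of the start of Grid1, 1 was called. The difference of Grid1 did not pass, so it may be no more than the spread between libraries. Linkage to the targeted allele, an effect of the deletion and that spread cannot be told apart here.

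Metabotropic receptor genes were led by Grm5 (mGluR5), which couples to phospholipase C, with 18.03 ± 1.15 FPKM in V, and Grm7 (mGluR7), a presynaptic brake on release, with 12.8 ± 0.134 FPKM (SD, n = 3 each). Grm3, Grm4, Grm8 and Grm2, which inhibit adenylyl cyclase as Grm7 does, had 4.97 ± 0.780, 4.59 ± 0.229, 4.28 ± 0.210 and 3.82 ± 0.868 FPKM (SD, n = 3 each). Neighbours in the order of these 4 genes, apart from Grm4 and Grm8, differed by less than 1 SD of the wider one. The summed FPKM of the 6 genes was 48.5 ± 0.345 in V and 50.9 ± 4.18 in r1r2V (SD, n = 3 each).

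Grm5 had 146, 161 and 145 CPM in the V libraries against 149, 154 and 186 CPM in r1r2V, where replicate 5 was highest. Grm7 had 52.5, 53.2 and 52.6 CPM in the V libraries against 53.2, 62.3 and 59.2 CPM in r1r2V. The groups of Grm7 did not overlap, but its lowest r1r2V value exceeded the highest V value by a small margin. The log2 fold change was 0.14 with a standard error of 0.0744 (adjusted p = 0.679).

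Grm8 ranged more widely, with 15.1, 15.7 and 14.3 CPM in the V libraries against 12.5, 23.2 and 18.1 CPM in r1r2V. Grm2 had 13.6, 9.13 and 14.4 CPM in the V libraries against 12.2, 5.97 and 13.5 CPM in r1r2V, and Grm4 had 17.3, 17.4 and 18.8 CPM in the V libraries against 16.5, 11.7 and 17.9 CPM in r1r2V. Replicate 4 of r1r2V was thus the highest of all libraries for Grm8 and the lowest for Grm2 and Grm4. Grm3 had 18.8, 13.9 and 18.5 CPM in the V libraries against 16.3, 17.4 and 19.6 CPM in r1r2V. Grm4 was the other gene whose share of its family did not overlap between groups, at 9.46% ± 0.411 in V and 7.75% ± 1.58 in r1r2V (SD, n = 3 each, exact permutation p = 0.1, adjusted p = 1). Here too the margin was small, with a lowest V share of 9.13% and a highest r1r2V share of 9.04%.

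Of the scaffold genes, Dlg4 was the steadiest. It had 378, 387 and 386 CPM in the V libraries against 411, 371 and 378 CPM in r1r2V, and its interval ran from 0.918-fold to 1.11-fold. The Shank genes encode the deeper layer of the postsynaptic density, which ties receptors to actin. Shank1, Shank3 and Shank2 had 11.5 ± 0.249, 9.66 ± 0.301 and 4.56 ± 0.460 FPKM in V (SD, n = 3 each).

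Shank2 had 25.6, 30.2 and 25.4 CPM in the V libraries against 45.4, 29.5 and 30.1 CPM in r1r2V. Replicate 1 of r1r2V stood above the other 5 libraries and the rest overlapped. Its log2 fold change of 0.37 (standard error 0.157, unadjusted p = 0.0399, adjusted p = 0.627) was 0.14 without that library, and up to 0.48 with another left out. Shank1 had 87.9, 86.7 and 84.1 CPM in the V libraries against 118, 71.9 and 82.1 CPM in r1r2V, and Shank3 had 68.7, 65.2 and 69.7 CPM in the V libraries against 83.2, 62.6 and 68.1 CPM in r1r2V. All 3 Shank genes were highest in r1r2V replicate 1, and Shank1 and Shank3 were lowest in replicate 4.

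The spread within r1r2V was wide for most of the 30 genes. The SD of log2(CPM + 0.5) was larger in r1r2V than in V for 24 of 29 members (82.8%), beside 71.8% of all genes tested. Its median was 0.180 in r1r2V and 0.0752 in V over the members, and 0.131 and 0.0803 over all genes. Replicate 1 was the highest of the 3 r1r2V libraries for 13 members, beside 34.2% of all genes (44.8% of the members). Replicates 1 and 4 were each the lowest for 11 members (37.9%), beside 34.0% and 34.7% of all genes, so these shares of lowest values are near the background.

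In r1r2V replicate 4 these deviations went with the base composition of the transcripts. Among the 12 members with over 50% GC in their longest GENCODE transcript, 11 lay below the V mean in r1r2V replicate 4, the exception being Shank2, with a median of -0.29 on the log2 scale. That is 91.7%, beside 71.8% of all genes over the same GC content. Among the other 17 members, 4 lay below it in that library (23.5%, beside 28.1% of all such genes), with a median of 0.06. Across the 29 members the deviation of replicate 4 had a Pearson r of -0.618 with transcript GC (Spearman rho -0.743), beside -0.431 (rho -0.548) across 13752 genes whose mean reached 1 CPM. For replicates 1 and 5 the members' r was 0.344 and -0.406, beside 0.015 and -0.125 across all genes. In V replicates 2, 3 and 4 it was 0.090, -0.351 and 0.377, beside -0.082, -0.137 and 0.227 across all genes. Values of the size seen in r1r2V replicate 1 thus also occurred in V. Each V library is part of the V mean it is set against, so V and r1r2V values are not like for like. These are descriptions across genes that share a library, and genes are not independent replicates.

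Grin2d, at 65.0% GC, had 0.68 log2 units more in replicate 1 than in replicate 4, and Shank1, at 61.4% GC, had 0.72 more. Gria2, at 36.8% GC, had -0.13, and Grm8, at 41.9% GC, had -0.86. With an offset for GC fitted in each library, 0 members were higher and 0 lower, and Grid1 stayed at -0.25 (adjusted p = 0.203). Values under that offset bear on GC only, and the part of other library differences was not tested.

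**Figure D4:**
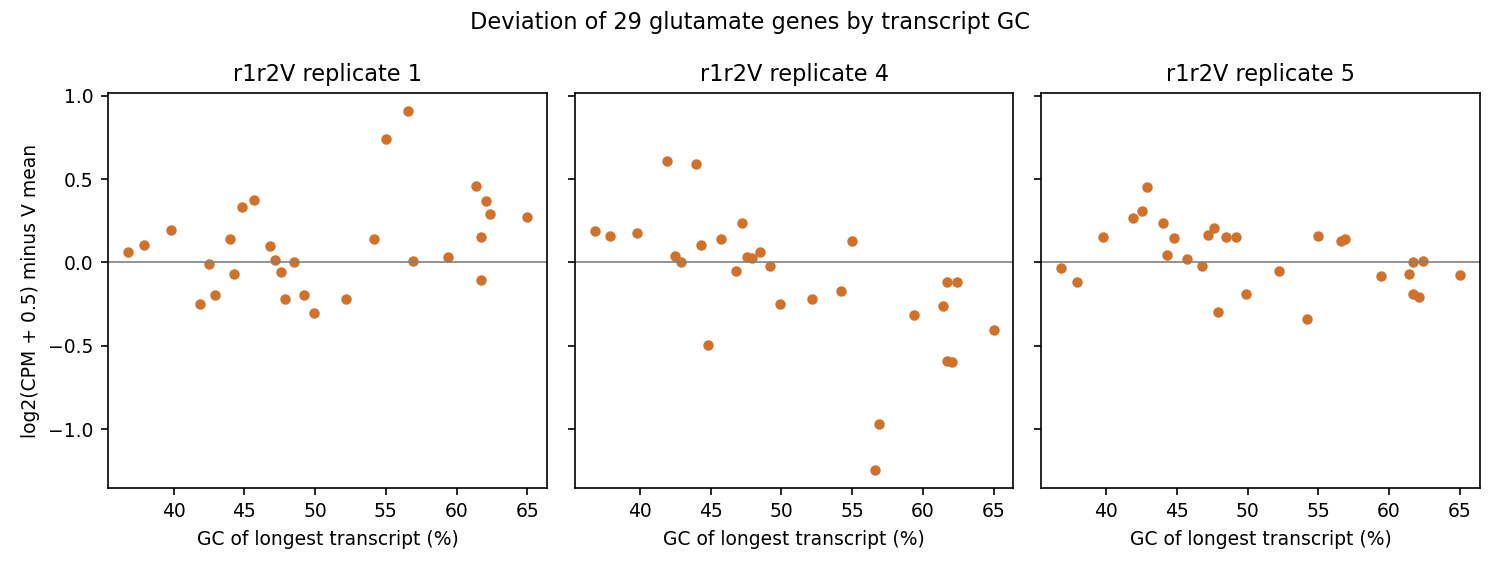
Deviation of each of the 29 tested glutamate genes from its V mean, in log2(CPM + 0.5), against the GC percent of its longest transcript, with 1 panel per r1r2V library. In replicate 4 the GC-rich genes other than Shank2 lie below 0 and most GC-poor genes above it (r = -0.618), while replicate 1 shows r = 0.344.

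Transcript use was read from the deposited length of each gene, an average over its transcripts in that library. Only 1 transcript was counted for 14 of the 30 genes, whose lengths cannot vary. Of the 16 with several transcripts, 4 varied by over 1% between libraries. Gria4 had 4055, 4117 and 4160 bases in V and 4261, 3950 and 4020 bases in r1r2V. Slc17a8 had 4285, 4078 and 4293 bases in V and 4086, 4082 and 4162 bases in r1r2V. Gria2 varied by 1.41% and Shank2 by 1.75% of their mean. The groups overlapped for all 4.

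Promoter sequence was searched because REV-ERB proteins bind DNA at the ROR response element, AGGTCA behind a stretch rich in A and T, and because the clock activators bind at CACGTG. The RefSeq table (GRCm38.p6, 250 bases before to 50 after each start) held 26 promoters of 19 of the 30 genes. The ROR response element, on either strand, was in 0 of the 26 promoters and in 0.2% of 17533 promoters of listed genes. AGGTCA was in 3 of the 26 (Dlg4, Grin2c and Grm8), beside 13.6% of all. CACGTG was in 1 of the 26, that of Grin1, which held it at 2 places, beside 8.89% of all. TGACG, a core of the cyclic AMP response element, was in 5 of the 26 (Grin1, Grm8, Slc17a6, Grik2 and Dlg4), beside 26.8% of all. The stretches around the AGGTCA and CACGTG matches upstream of a start follow, 5′ to 3′ on the gene's strand, with the match in capitals (TGACCT is AGGTCA on the other strand).
Grin1, 181 bases upstream, chr2:25319351-25319380, minus strand: agagtgcaggtgCACGTGgtgataagaaac
Grin1, 85 bases upstream, chr2:25319255-25319284, minus strand: cgtgcacatgccCACGTGggcgcgtctcac
Dlg4, 108 bases upstream, chr11:70017083-70017112, plus strand: agtgttacctggTGACCTggggaagaatgg
Grin2c, 248 bases upstream, chr11:115267474-115267493, minus strand: caAGGTCAcacagctaggga
The log2 fold changes of Grin1, Dlg4 and Grin2c were -0.11, 0.01 and -0.09, and none passed. A match is a description of these letters and not a bound site.

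The surrounding glutamate pathway was read from 5 lists. Of 87 genes tested, 0 were higher and 0 lower, beside 0.298% and 0.118% of all genes. The medians of the lists ran from -0.03 to 0.07. At an unadjusted p under 0.05, 4 were higher and 4 lower, beside 3.95% and 3.63% of all genes, so both counts are near the background. Among AMPA receptor auxiliary subunits and binders (21 tested, median -0.03), Nsf and Cnih2, which move and gate AMPA receptors, had log2 fold changes of -0.03 and 0.05. In the list of receptor partners (15 tested of 16, median 0.01), Cbln1, a cerebellin that links to delta receptors, had -0.13. In the scaffold and kinase list (20 tested, median 0.07), Camk2b and Camk2a, subunits of a calcium-dependent kinase of the synapse, had -0.02 and 0.07. In the uptake and metabolism list (17 tested, median -0.03), Glul, which makes glutamine in astrocytes, and Slc1a3, an astrocytic glutamate transporter, had 0.15 and 0.09. In the light-input list (14 tested, median -0.02), Ntrk2, the BDNF receptor gene, and Mapk3, an ERK kinase gene, had 0.02 and -0.08.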

How the data were processed

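The 6 deposited tables give, per the file headers, an expected count, an FPKM and a transcript length per gene. Expected counts are estimated reads as the authors deposited them, and 9.88% were not whole. The submitters' processing notes name RSEM 1.2.12, Bowtie2 2.2.5, HISAT2 2.0.4, Cufflinks 2.2.1, StringTie 1.0.4, DESeq2, GATK and build mm10. For these tools neither role nor strand setting is given in the sources used here, and reads of overlapping antisense genes cannot be told apart. Genes not listed were set to 0.

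Expected counts were rounded, filtered (filterByExpr, minimum count 10), scaled by TMM and tested with edgeR 4.0.16 in R 4.3.3 (quasi-likelihood, Benjamini-Hochberg over all genes, threshold 0.05). Standard errors and 95% intervals derive from its F statistic. CPM uses scaled library sizes. Subunit shares use FPKM, with two-sided exact permutation tests over 20 regroupings. Alternatives used DESeq2 1.42.0, limma 3.58.1, other scalings and filters, log2 FPKM with pseudocounts 1 and 0.1, each library left out, and a GC offset added after seeing the data. The test was checked on simulated data.

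All 30 members are named. Pathway genes were named as called, or otherwise as the 2 with the highest mean FPKM, of which 1 is not reported here. Members and lists were chosen with earlier results of these data known. Positions are RefSeq GRCm38.p6, strands and GC from GENCODE M21.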

Additional observations from a re-analysis of the deposited data

How the results depend on the processing

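No paired analysis was possible because number 4 alone occurs in both groups. Under 16 alternatives, 0 members and 0 pathway genes were higher or lower in any. DESeq2 called 69 genes higher and 40 lower of all tested. Without 1 library these counts were 19 to 52 and 7 to 24, and leaving out V replicate 2, 3 or 4 gave 20, 20 or 19 higher and 7, 8 or 7 lower, with fewer samples fitted. Shares that did not overlap between groups numbered 2 to 6 without 1 library, beside 2. Leaving out 1 library also leaves fewer samples to overlap.

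Of 464 pairs of a member and an alternative, 428 kept the sign of the log2 fold change and 36, in 15 members, changed it, all without passing. With the GC offset, added after seeing the data, the changed signs were Gria2 -0.017, Gria4 -0.017, Grin2d 0.034, Grik2 -0.032, Grik5 0.048 and Dlg4 -0.013. Slc17a7 was -0.25 with limma-voom and -0.12 on log2(FPKM + 0.1), where Grin2a was -0.024 and -0.028, and on log2(FPKM + 1) Grin2a was -0.001 with and without the filter. Without 1 library the ranges were -0.10 to 0.25 (Slc17a6), -0.58 to 0.69 (Slc17a7), -0.015 to 0.072 (Gria4), -0.19 to 0.29 (Grin2a), -0.40 to 0.11 (Grin2c), -0.24 to 0.11 (Grin2d), -0.11 to 0.068 (Grin3a), -0.003 to 0.13 (Grik2), -0.15 to 0.021 (Grik5), -0.44 to 0.058 (Grm2), -0.073 to 0.13 (Grm3), -0.035 to 0.041 (Dlg4), -0.16 to 0.22 (Shank1) and -0.053 to 0.16 (Shank3). The cause was not tested. Depth limits Grin3b, Slc17a7 and Grin2a most, at under 3 CPM in most libraries.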

Other observations

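The 8 pathway genes under an unadjusted p of 0.05 (edgeR's quasi-likelihood test), 4 higher and 4 lower, are given here as values. They were chosen after they were seen, and none passed after Benjamini-Hochberg adjustment. Over all genes tested, 7.58% were under that p, and the groups did not overlap for 14.5%. Other pathway genes, among them Grip1 and Creb1, also had groups that did not overlap and are not described. The neuronal pentraxins, which cluster AMPA receptors from outside the cell, were all under an unadjusted p of 0.05, with different signs. Nptx2 had 14.3, 27.7 and 17 CPM in the V libraries against 23.1, 44.6 and 33.5 CPM in the r1r2V ones, a difference of 0.78 on the log2 scale (adjusted p = 0.514). Nptx1 had 77.3, 104 and 100.2 CPM in the V libraries against 106, 103 and 139 CPM in the r1r2V ones, a difference of 0.31 on the log2 scale (adjusted p = 0.647). Nptxr, their membrane-bound relative, had 64.7, 74.9 and 62.8 CPM in the V libraries against 59.2, 35.9 and 54.0 CPM in r1r2V, with groups that did not overlap (log2 fold change -0.44, adjusted p = 0.558).

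Homer1, a scaffold gene that joins metabotropic receptors to Shank proteins, had 26.4, 27.2 and 28.0 CPM in the V libraries against 30.8, 33.8 and 33.5 CPM in the r1r2V ones, a difference of 0.27 on the log2 scale (adjusted p = 0.343). Crem, a cyclic AMP-responsive transcription factor gene, had 18.6, 19.2 and 17.5 CPM in the V libraries against 22.1, 30.5 and 23.5 CPM in the r1r2V ones, a difference of 0.46 on the log2 scale (adjusted p = 0.296). In both genes all r1r2V libraries lay above all V libraries.

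The other 3 were lower. Camk2g, a calcium-dependent kinase subunit gene, had 214, 210 and 217 CPM in the V libraries against 196, 181 and 202 CPM in the r1r2V ones, a difference of -0.15 on the log2 scale (adjusted p = 0.633). Slc38a3, a glutamine transporter gene, had 64.2, 62.5 and 67.9 CPM in the V libraries against 53.1, 55.5 and 60.6 CPM in the r1r2V ones, a difference of -0.20 on the log2 scale (adjusted p = 0.573). Vipr2, the receptor gene for the SCN peptide VIP, had 13.7, 16.3 and 12.5 CPM in the V libraries against 11.03, 12.6 and 7.69 CPM in the r1r2V ones, a difference of -0.44 on the log2 scale (adjusted p = 0.599). The groups of Camk2g and Slc38a3 did not overlap, and those of Vipr2 did.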
